A study of Sus scrofa with 12 samples.

Results

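The collagens and stromal matrix genes are the fibre-forming and network-forming collagens, the proteoglycans and glycoproteins bound to them, and fibroblast surface markers of the ovary. They were taken as every gene named as a collagen chain in the array annotation plus a list of 32 members, each read by its brightest probe set over all sows. A probe set is the group of short oligonucleotides that reads one transcript on an Affymetrix array. Of the 6765 genes with a single symbol on the array, 29 belonged to the group, 15 of them collagens, and 22 of the 29 were bright enough to be tested. The listed members COL1A1, COL4A1, COL6A1, COL12A1, COL14A1, COL18A1, ELN, PDGFRA, NID1 and OGN had no probe set with a single symbol and were not analysed here. The samples were ovaries of 6 high and 6 low prolificacy sows, placed in their group by the breeding value for prolificacy. All 12 were F2 animals of an Iberian by Meishan cross, killed on day 30 of pregnancy, with 1 array per sow and each sample described as the average of her right and left ovary. The question put to each gene was whether its transcript differed between sows of the 2 groups.

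Fibrillar collagens are secreted as triple helices and assemble into the fibres that carry the load of the ovarian stroma and the follicle wall. Network collagens and laminins form the basement membranes around follicles and vessels, and matricellular proteins sit in the matrix without bearing load and tune how cells respond to it. In the pig a pregnant ovary is filled largely by corpora lutea, whose steroid-secreting cells lie among vessels and strands of connective tissue. A level read from whole ovary mixes all of these, so that fewer matrix-making cells and less transcript per cell cannot be told apart. Levels are log2 values, in which a difference of 1 is a doubling, and levels of different probe sets are not set against each other.

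No collagen or matrix gene differed between high and low prolificacy sows at the adjusted threshold. In limma, a linear model with moderated variance fitted to all 13390 probe sets that exceeded 4 in at least 6 sows, 0 of the 22 genes passed an adjusted p of 0.05, as did 0% of all probe sets tested. The smallest adjusted p among the 22 was 0.801. At an unadjusted p under 0.05 stood 1 of the 22 genes, LAMC1, higher in high prolificacy sows. Over all 5079 genes tested, 4.45% stood under that p in either direction and 1.61% were under it and higher. In 0 of the 22 genes were the groups free of overlap, against 0.433% of all genes. The difference, high minus low, was above 0 in 19 of the 22 genes and in 43.6% of all genes, with a median of 0.13 in the 22 and -0.027 in all. Many of the 22 genes varied together over sows, so the count of 19 does not rest on 19 independent genes. It was 13 without high 2 and high 3, which had the lowest mean rank correlation with the other arrays (0.982 and 0.981, against at least 0.985 in the other sows), and also 13 without low 5.

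**Figure D1:**
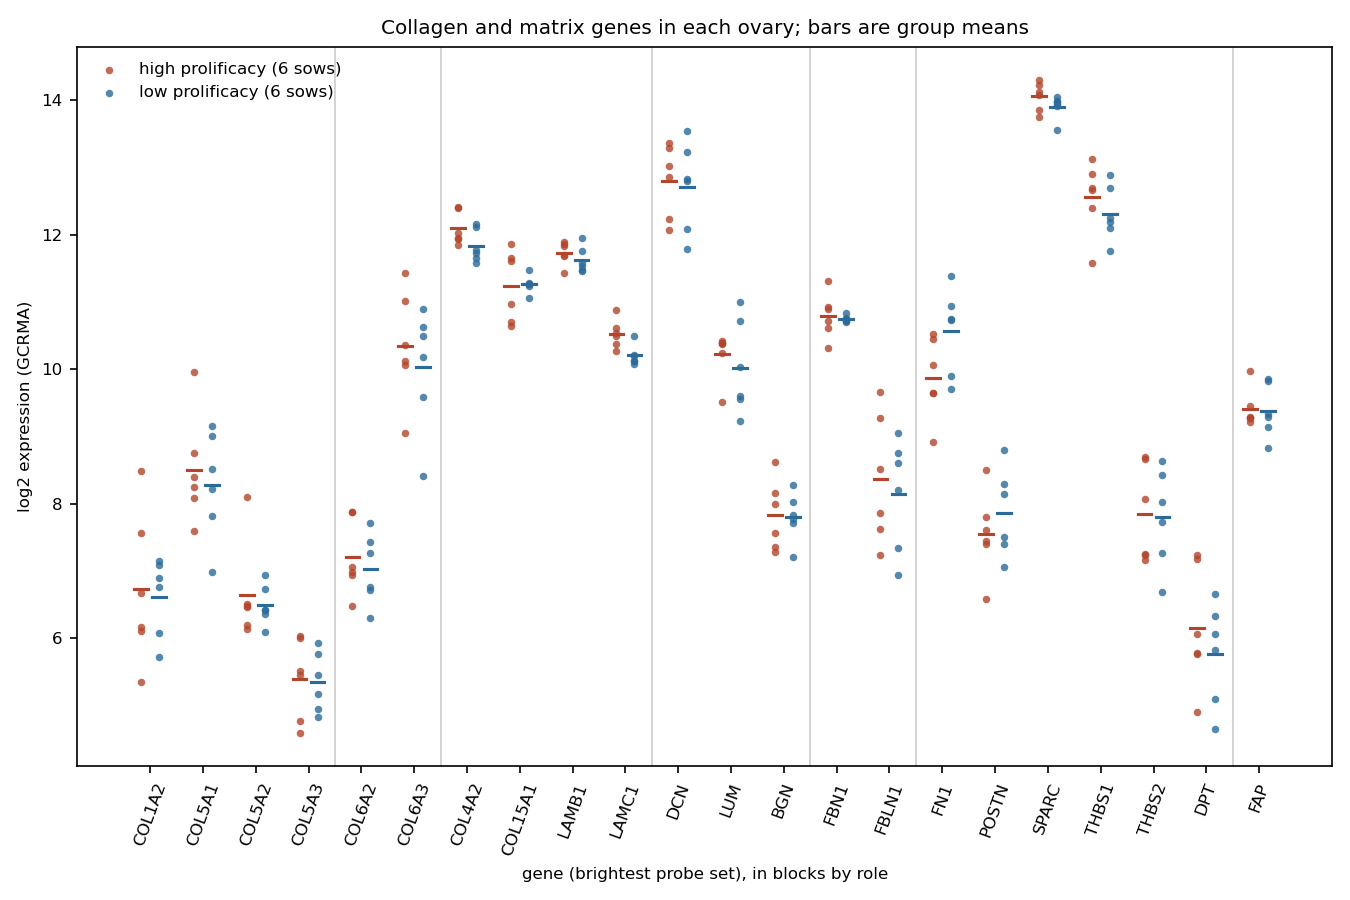
Each point is the log2 expression of 1 gene in the ovary of 1 sow, with high prolificacy sows (red) left of low prolificacy sows (blue) and short bars at the group means. Grey lines part the genes by role: fibrillar collagens, other collagens, basement membrane, proteoglycans, elastic fibre, adhesive and matricellular proteins, and FAP. The groups overlap in every gene shown.

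COL1A2, a chain of type I collagen, the main fibre of connective tissue, varied widely between sows of the same group. It ran from 5.35 through a median of 6.42 to 8.49 in high prolificacy sows, against 5.71, 6.83 and 7.15 in low prolificacy sows. High 3 held the highest and high 4 the lowest value of all 12 sows, and every low prolificacy sow lay between them. The means were 6.73 ± 1.13 (SD, n = 6) in high and 6.62 ± 0.58 (n = 6) in low prolificacy sows. The difference was 0.11, with a 95% interval from -0.90 to 1.12 (limma adjusted p = 0.990). It was -0.24 without high 3 and 0.38 without high 4. A second, dimmer probe set of COL1A2 did not follow the first. It stood at 3.35 in high 3, its lowest value, and at 6.22 in high 6, its highest, and the correlation of both probe sets across the 12 sows was -0.236. Its difference was -0.43. Statements on COL1A2 below hold for the brighter probe set.

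Type V collagen starts fibre assembly and sets fibre width, and its 3 chain genes did not vary alike over all sows. COL5A1 ran from 7.60 through 8.33 to 9.96 in high and from 6.98 through 8.37 to 9.16 in low prolificacy sows, again highest in high 3. Its difference was 0.22 (95% interval -0.69 to 1.13), and 0.41 in a second probe set whose correlation with the first was 0.877. COL5A2 ran from 6.14 through 6.47 to 8.10 in high and from 6.09 through 6.42 to 6.94 in low prolificacy sows. High 2 alone held 8.10, and the other 11 sows lay at 6.94 or below. The COL5A2 difference was 0.15, and -0.14 without high 2. COL5A3 ran from 4.58 through 5.48 to 6.04 in high and from 4.84 through 5.31 to 5.93 in low prolificacy sows, and here high 4 was highest and high 3 lowest, the reverse of COL1A2. Its difference was 0.042 (95% interval -0.57 to 0.65).

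Type VI collagen forms beaded filaments that tie cells to the fibres around them. COL6A2 ran from 6.48 through 7.03 to 7.88 in high and from 6.30 through 7.01 to 7.71 in low prolificacy sows, a difference of 0.17. COL6A3 ran from 9.06 through 10.25 to 11.43 in high and from 8.41 through 10.34 to 10.90 in low prolificacy sows, a difference of 0.31. The spread of COL6A3 was the 8.11-fold gap between high 3 and low 2, against a fitted group difference whose interval ran from -0.67 to 1.29. Without low 2 the COL6A3 difference was -0.013 and that of COL6A2 was 0.027.

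The basement membrane genes LAMB1, LAMC1, COL4A2 and COL15A1 varied less between sows than the collagens above. Their SD over the 12 sows was 0.18 (LAMB1) to 0.37 (COL15A1), against 0.51 (COL5A3) to 0.86 (COL1A2). LAMC1, the gamma chain shared by most laminins, had the smallest unadjusted p of the group. It ran from 10.28 through 10.51 to 10.88 in high and from 10.08 through 10.16 to 10.50 in low prolificacy sows. Of the low prolificacy sows, 5 lay below every high prolificacy sow, and low 4 lay among them. The means were 10.53 ± 0.21 (SD, n = 6) in high and 10.21 ± 0.15 (n = 6) in low prolificacy sows, a difference of 0.32 or 1.25-fold. Its 95% interval ran from 0.076 to 0.57 (limma adjusted p = 0.801). The 3 dimmer LAMC1 probe sets differed by 0.21, 0.051 and 0.22, and the last of these had a correlation of 0.853 across sows with the 3' difference of the actin control, a sign of RNA integrity described below. That correlation was 0.148 for the brightest LAMC1 probe set, and the part of RNA integrity in the result was not tested beyond a fit with that measure as a covariate, which left a difference of 0.45. Of the 31 probe sets tested for the 22 genes, 2 stood at an unadjusted p under 0.05, both of LAMC1, against 5.64% of all probe sets.

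COL4A2, a chain of the collagen network of basement membranes, ran from 11.85 through 11.98 to 12.42 in high and from 11.58 through 11.75 to 12.16 in low prolificacy sows. Its difference was 0.26 (95% interval -0.0495 to 0.57, limma adjusted p = 0.888). LAMB1, a beta chain of laminin, ran from 11.43 through 11.76 to 11.90 in high and from 11.47 through 11.56 to 11.95 in low prolificacy sows, a difference of 0.11. A dimmer LAMB1 probe set differed by -0.27. COL15A1, a proteoglycan-like collagen of basement membrane zones, averaged 11.24 ± 0.54 (SD, n = 6) in high and 11.27 ± 0.13 (n = 6) in low prolificacy sows, a difference of -0.029. Its values in high prolificacy sows lay apart, with high 1, high 2 and high 3 at 10.70, 10.96 and 10.64 and high 4, high 5 and high 6 at 11.61, 11.87 and 11.65. The low prolificacy sows lay between 11.06 and 11.47, inside the gap.

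Among the small leucine-rich proteoglycans, which coat collagen fibres, DCN (decorin) ran from 12.08 through 12.94 to 13.36 in high and from 11.79 through 12.82 to 13.53 in low prolificacy sows, a difference of 0.091. Without low 2, its lowest sow, the DCN difference was -0.093. LUM (lumican) ran from 9.51 through 10.38 to 10.41 in high and from 9.23 through 9.81 to 10.999 in low prolificacy sows. In LUM 5 of the high prolificacy sows lay between 10.24 and 10.41, with high 1 below them, while the low prolificacy sows spread over the whole range. Its difference was 0.20 (95% interval -0.44 to 0.83). BGN (biglycan) averaged 7.83 ± 0.52 (SD, n = 6) in high and 7.81 ± 0.35 (n = 6) in low prolificacy sows, a difference of 0.022. FBN1, the fibrillin of the microfibrils on which elastin is laid, averaged 10.80 ± 0.34 (n = 6) in high and 10.75 ± 0.046 (n = 6) in low prolificacy sows. Its difference was 0.048 in the brightest and -0.24 in the other probe set. FBLN1 (fibulin), found in elastic fibres and basement membranes, ran from 7.24 through 8.19 to 9.67 in high and from 6.95 through 8.41 to 9.05 in low prolificacy sows, a difference of 0.21.

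FN1 (fibronectin), the adhesive glycoprotein that cells bind through integrins, had the widest gap between group means. It ran from 8.93 through 9.86 to 10.52 in high and from 9.71 through 10.74 to 11.38 in low prolificacy sows. Of the low prolificacy sows, 4 lay above all high prolificacy sows, and low 2 and low 6 lay among them. The means were 9.88 ± 0.60 (SD, n = 6) in high and 10.57 ± 0.64 (n = 6) in low prolificacy sows, a difference of -0.69, or 1.62-fold lower in high. Its 95% interval ran from -1.40 to 0.0099 (limma adjusted p = 0.874). Fibronectin is also a plasma protein made by liver, and transcripts of ALB (albumin), the chief plasma protein of liver, were read at 8.67 in high 5 and at 12.61, 8.80 and 12.40 in low 1, low 3 and low 4, while the other 8 sows stood at 3.33 or below. FN1 lay between 10.52 and 11.38 in high 5, low 1, low 3 and low 4. In the other sows it lay between 8.93 and 10.45, apart from low 5, which had 10.94 with ALB at 2.16. With ALB as a covariate the FN1 difference was -0.36. FGB, a fibrinogen chain made by liver, was read in the same sows, at 6.63 in high 5 and at 11.52, 8.50 and 12.87 in low 1, low 3 and low 4, and stood at 3.81 or below in the others. The liver markers TTR, AHSG, SERPINA1 and APOH stood between 5.25 and 8.46 in low 1 and low 4 and at 2.75 or below in the other 10 sows. Of 7 liver markers with a probe set, 1 (APOA1) passed the filter. It differed by -0.075 and ran from 12.15 to 12.92 in high and from 12.11 to 12.69 in low prolificacy sows. The part of such transcripts in the FN1 values was not tested further.

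THBS1, a thrombospondin that restrains vessel growth, ran from 11.58 through 12.68 to 13.13 in high and from 11.75 through 12.22 to 12.88 in low prolificacy sows, a difference of 0.25. Its other probe sets above the filter differed by -0.023 and 0.25. THBS2, the related thrombospondin, ran from 7.16 through 7.67 to 8.70 in high and from 6.69 through 7.88 to 8.64 in low prolificacy sows, a difference of 0.052. SPARC (osteonectin), a collagen-binding matricellular protein, averaged 14.06 ± 0.22 (SD, n = 6) in high and 13.90 ± 0.17 (n = 6) in low prolificacy sows, a difference of 0.15. POSTN (periostin), a matricellular protein of remodelling connective tissue, ran from 6.58 through 7.53 to 8.50 in high and from 7.06 through 7.82 to 8.80 in low prolificacy sows, a difference of -0.31. The POSTN difference was -0.12 without high 3 and -0.50 without high 4. DPT (dermatopontin), which binds decorin, ran from 4.91 through 5.92 to 7.24 in high and from 4.66 through 5.95 to 6.65 in low prolificacy sows. Its difference of 0.38 was 0.63 without high 1 and 0.16 without low 1. FAP, the fibroblast activation protease and the 1 fibroblast surface marker read here, ran from 9.22 through 9.28 to 9.98 in high and from 8.82 through 9.32 to 9.86 in low prolificacy sows, a difference of 0.031.

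**Figure D2:**
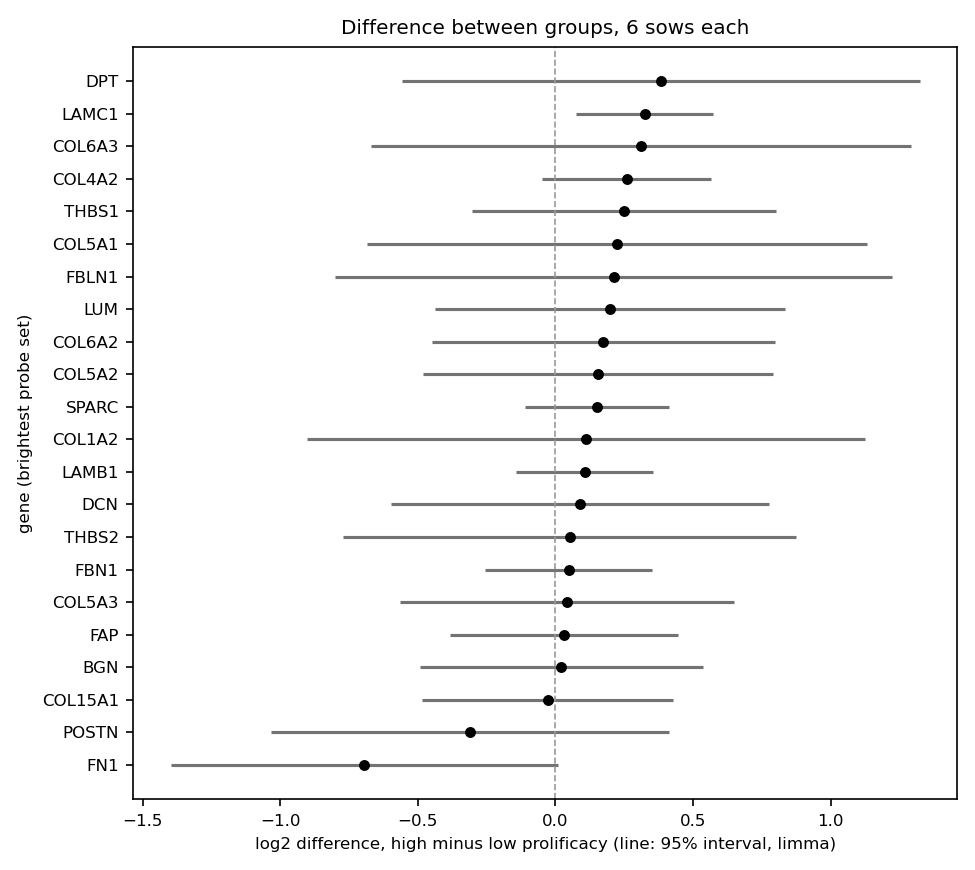
Points are log2 differences, high minus low prolificacy, of the 22 genes tested, with 95% intervals from limma as lines and 6 sows in each group. The interval of LAMC1 alone lies clear of 0, from 0.076 to 0.57, and its adjusted p was 0.801.

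The intervals bound what these sows could show. Their distance from the difference to either bound had a median of 0.63 over the 22 genes and ran from 0.25 to 1.01, against a median of 0.33 over all genes tested. The SD over the 12 sows had a median of 0.53 in the 22 genes and 0.27 in all genes, and 15 of the 22 lay above 0.39, the bound of the most variable 25% of all genes. Other collagens gave no value above the filter. COL2A1, the collagen of cartilage, lay between 1.989 and 2.035 in high and between 1.997 and 2.016 in low prolificacy sows. COL10A1, COL11A1, COL17A1, COL7A1 and COL8A1 stayed under 4 in every sow. COL3A1, the type III fibrillar collagen, was read by 1 probe set at 2.96 to 3.93 in high and 3.15 to 3.27 in low prolificacy sows. The authors' normalization draws dim probe sets toward a floor near these values, so such readings do not show that a transcript was absent. Of the chondrocyte markers with a probe set, 0 of 4 passed the filter.

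Across sows a block of matrix genes moved together. Over the 231 pairs of the 22 genes, 31 (13.4%) had a Pearson correlation above 0.7 across the 12 sows, against 3.42% of all pairs of genes tested. The pairs share the same 12 arrays, and these shares are given as a description. The count was also 31 from deviations from the group means (4.20% of all pairs of genes tested) and 30 without high 2 and high 3 (3.80%). Without any 1 sow it lay between 23 and 35 (3.05% to 4.36%). The genes tested were not matched to the 22 for their spread over sows. COL1A2, COL5A1, COL6A2, COL6A3, DCN, FBLN1, THBS1 and THBS2 had 5 to 8 partners each above 0.7. The highest correlations were 0.914 between COL5A1 and FBLN1, 0.904 between FBLN1 and THBS2 and 0.890 between DCN and THBS2. High 3 and high 1 stood above the mean of all 12 sows in each of these 8 genes, and high 4, low 2 and low 5 stood below it in each.

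COL5A3 and COL15A1 ran against the block, with correlations of -0.788 and -0.602 with COL1A2. FN1, FAP, LAMB1, COL5A2 and LUM followed it little, with correlations with COL1A2 between -0.149 and 0.174. LAMC1 and COL4A2 had a correlation of 0.733 with each other, and 0.619 after the group means were removed.

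**Figure D3:**
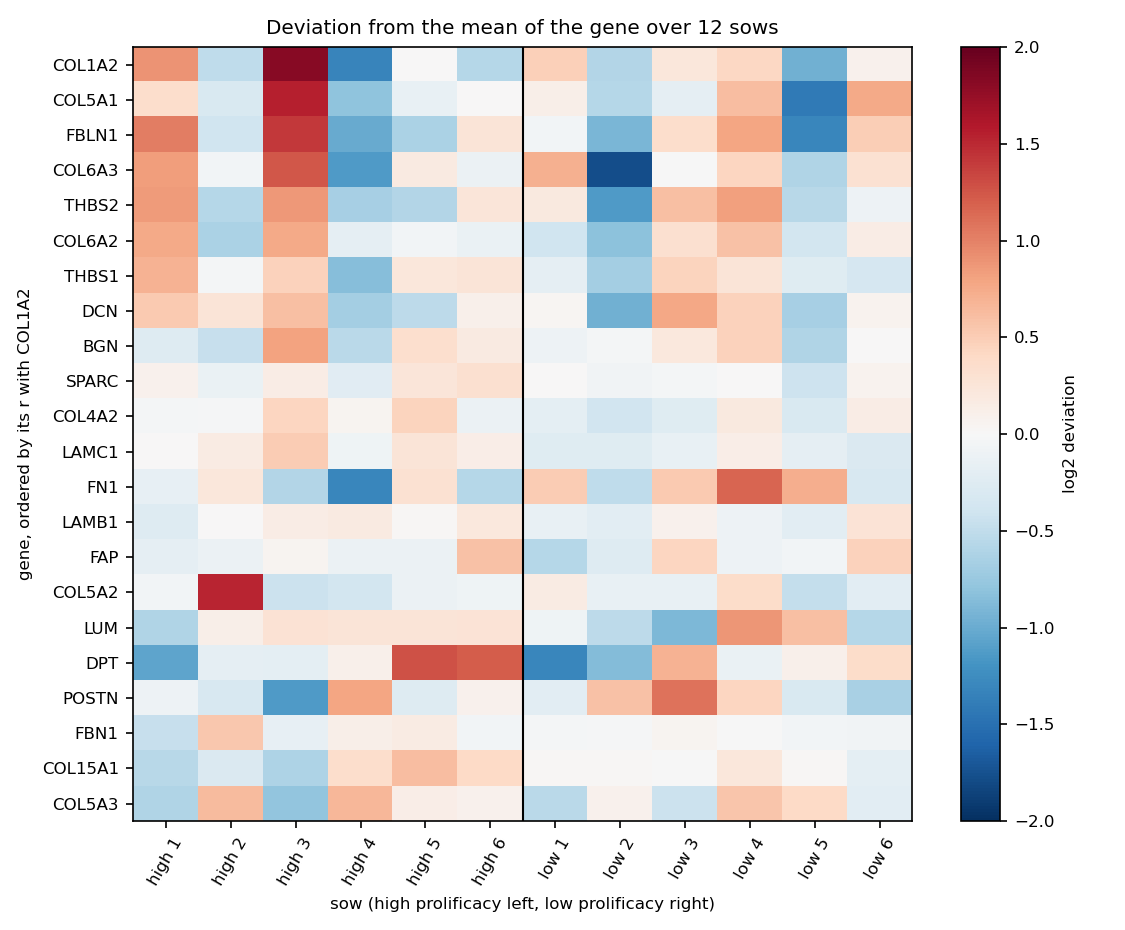
Colours give the log2 deviation of each gene from its mean over 12 sows, with high prolificacy sows left and low prolificacy sows right of the line and genes ordered by their correlation with COL1A2. High 1 and high 3 are red and high 4, low 2 and low 5 blue in the upper 8 genes, and COL5A3 at the bottom shows the reverse in high 3 and high 4.

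**Figure D4:**
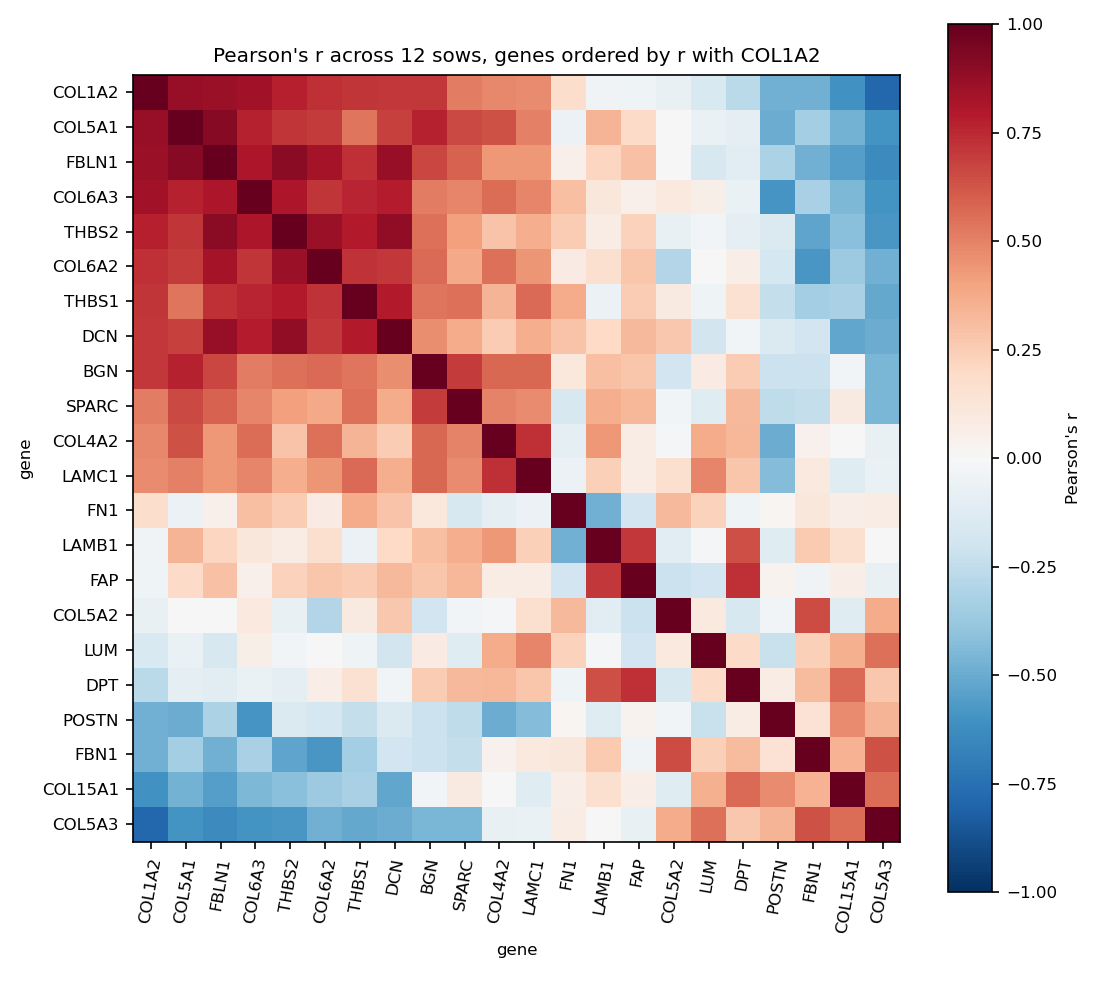
Colours give Pearson's r across 12 sows for each pair of the 22 genes, ordered by the correlation with COL1A2. The red block at the upper left holds COL1A2, COL5A1, FBLN1, COL6A3, THBS2, COL6A2, THBS1 and DCN, and COL5A3 and COL15A1 at the lower end are blue against it.

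Correlations of chosen pairs were tested in a family of 20, with 100000 permutations and Benjamini-Hochberg adjustment over the 20. For 12 of them COL1A2, COL4A2 or COL6A2 stood in for a collagen without a probe set, a choice made after seeing which genes had one. COL6A2 and COL6A3, chains of the same collagen, had an r of 0.715 (permutation p = 0.00795, adjusted p = 0.0318) and a rho of 0.706 (permutation p = 0.0126, adjusted p = 0.0506). Without high 1 and high 3, the sows farthest from the COL6A2 median, r was 0.549. COL5A1 and COL5A2 had an r of 0.0030 (permutation p = 0.992, adjusted p = 0.992) and a rho of 0.196 (permutation p = 0.541, adjusted p = 0.673). For them r was 0.711 without high 2 and high 3 and 0.011 without high 3 and low 5, the sows farthest from the COL5A1 median. Within groups their r was -0.310 in high and 0.679 in low prolificacy sows. LAMB1 and LAMC1, chains of the same laminins, had an r of 0.236 (permutation p = 0.463, adjusted p = 0.598) and a rho of 0.168 (permutation p = 0.605, adjusted p = 0.673), and r was 0.540 without the 2 sows farthest from the LAMB1 median. DCN and LUM had an r of -0.182 (permutation p = 0.565, adjusted p = 0.656) and a rho of -0.140 (permutation p = 0.668, adjusted p = 0.704), and r was -0.420 without the 2 sows farthest from the DCN median. COL1A2 and FN1 had an r of 0.174 (permutation p = 0.591, adjusted p = 0.656) and a rho of 0.182 (permutation p = 0.573, adjusted p = 0.673), and r was 0.193 without high 3 and high 4.

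COL1A2 and DCN were the genes of the block tested against markers of other ovarian cells, and some of these correlations, of either sign, passed the adjusted threshold. COL1A2 ran against CYP11A1, the side-chain cleavage enzyme of luteal cells, with an r of -0.909 (permutation p = 3e-05, adjusted p = 0.0006) and a rho of -0.874 (permutation p = 0.00031, adjusted p = 0.0062). Without high 3 and high 4, the sows farthest from the COL1A2 median, r was -0.808. It was -0.953 within high and -0.916 within low prolificacy sows. The dimmer COL1A2 probe set did not show this, with correlations of 0.345 with CYP11A1 and 0.0321 with ACTA2, while the second COL5A1 probe set had -0.809 and 0.836. COL1A2 ran with ACTA2, the smooth muscle actin of vessel walls and theca, with an r of 0.879 (permutation p = 0.00015, adjusted p = 0.0015), a rho of 0.832 (permutation p = 0.00132, adjusted p = 0.00745) and an r of 0.824 without the same 2 sows. It ran with INHA, the inhibin subunit of granulosa cells, with an r of 0.828 (permutation p = 0.001, adjusted p = 0.00667), a rho of 0.832 (permutation p = 0.00142, adjusted p = 0.00745) and an r of 0.736 without those 2 sows. DCN had an r of -0.706 with CYP11A1 (permutation p = 0.00604, adjusted p = 0.0302) and a rho of -0.832 (permutation p = 0.00149, adjusted p = 0.00745), and r was -0.636 without high 4 and low 2. DCN had an r of 0.688 with ACTA2 (permutation p = 0.0134, adjusted p = 0.0447) and a rho of 0.573 (permutation p = 0.0545, adjusted p = 0.156), and without the same 2 sows r was 0.435. The other pairs with PECAM1, an endothelial marker, with INHA and with COL4A2 had adjusted p values for r from 0.274 to 0.918.

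The marker lists gave these values over all their members tested. Of 7 luteal markers tested, 6 had a correlation under -0.7 with COL1A2, and LHCGR, the luteinizing hormone receptor, had 0.293. Of 7 smooth muscle and pericyte markers 4 (ACTA2, TAGLN, CNN1 and SMTN) were above 0.7, DES was at 0.566, and the pericyte markers PDGFRB and RGS5 were at -0.264 and -0.566. Above 0.7 were also 3 of 4 granulosa markers (INHA, CYP19A3 and FST) and the theca peptide INSL3, while 0 of 8 endothelial markers were and the granulosa marker INHBA was at -0.742. Among all 5078 other genes tested, 10.9% were above 0.7 with COL1A2 and 10.7% under -0.7. The mean log2 level of the luteal markers ran from 13.04 to 13.76 in high and from 13.33 to 13.60 in low prolificacy sows, that of the smooth muscle markers from 9.69 to 10.67 and from 9.76 to 10.36, and that of the granulosa markers from 5.90 to 10.18 and from 7.35 to 10.23. The granulosa markers FSHR, AMH, INHBB and CYP19A1 lay below the filter, as did CYP17A1 of the theca. The part of the makeup of the ovary in the block was not tested.

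**Figure D5:**
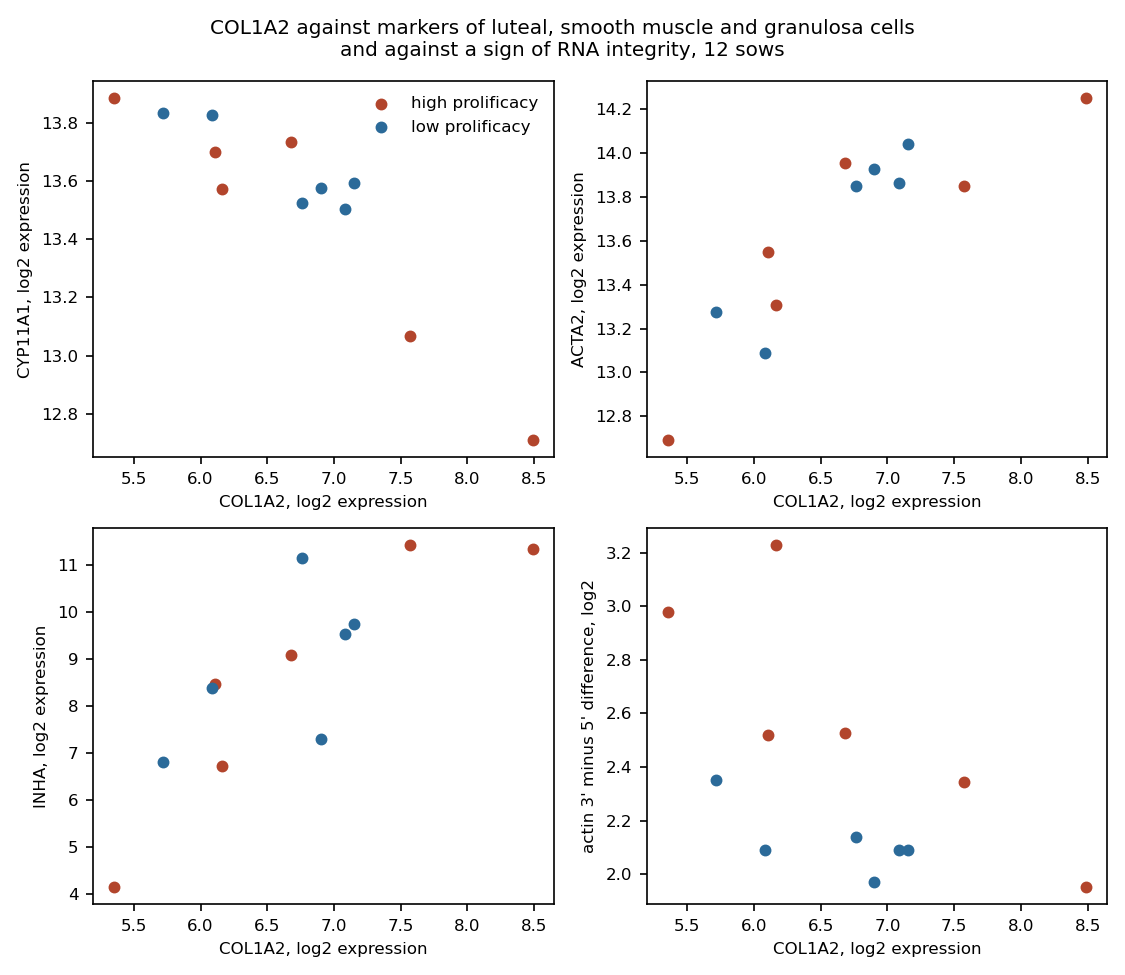
Each point is 1 sow, with COL1A2 on the horizontal axis in log2 and CYP11A1, ACTA2, INHA and the 3' minus 5' difference of the actin control on the vertical axes in log2, high prolificacy in red and low prolificacy in blue. COL1A2 falls as CYP11A1 rises (r = -0.909) and rises with ACTA2 (r = 0.879) and INHA (r = 0.828) over both groups.

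A measure of RNA integrity differed between the groups, and its correlations with COL1A2 and DCN did not pass the adjusted threshold. The array reads the 3' and the 5' end of actin apart, and a larger 3' minus 5' difference is seen where RNA is less intact or less fully copied. It was 2.59 ± 0.45 (SD, n = 6) in high and 2.12 ± 0.13 (n = 6) in low prolificacy sows (exact permutation test, two-sided, p = 0.0325, adjusted p = 0.0325 over this and the GAPDH control). The GAPDH control gave 2.02 ± 0.20 (n = 6) against 1.77 ± 0.11 (n = 6) (exact permutation p = 0.0195, adjusted p = 0.0325). COL1A2 had an r of -0.602 with the actin measure (permutation p = 0.0392, adjusted p = 0.112) and a rho of -0.615 (permutation p = 0.0372, adjusted p = 0.124), and r was -0.384 without high 3 and high 4 and -0.813 after the group means were removed. For DCN r was -0.282 (permutation p = 0.378, adjusted p = 0.581) and rho was -0.455 (permutation p = 0.138, adjusted p = 0.308), with an r of -0.305 without high 4 and low 2. After the group means were removed, r of DCN with the measure was -0.42. Within groups, r of COL1A2 with the measure was -0.847 in high and -0.718 in low prolificacy sows, and that of DCN was -0.483 and -0.615. Over all 12 sows the other genes of the block had correlations from -0.492 (THBS2) to -0.295 (THBS1). Outside the block the widest were 0.671 for COL5A3, 0.634 for FBN1, -0.605 for BGN and 0.526 for COL5A2. None of these was tested, nor was the part of RNA integrity in the block.

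With that measure as a covariate the differences of the block were larger, at 1.14 for COL1A2, 1.01 for COL5A1, 0.70 for COL6A2, 0.98 for COL6A3, 1.11 for FBLN1, 0.45 for DCN, 0.66 for THBS1 and 0.72 for THBS2. BGN then differed by 0.51, SPARC by 0.33 and COL4A2 by 0.39, while COL5A2 differed by -0.28 and COL5A3 by -0.57. None passed: the smallest limma adjusted p of any of the 22 genes in any setting was 0.199, that of LAMC1 in this fit. As the measure itself differed between groups, it and the group cannot be fully told apart in that fit.

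No gene of collagen building gave a call. Of 32 genes of collagen folding, hydroxylation, secretion and crosslinking, 14 were tested and 0 passed the limma adjusted threshold, as did 0% of all probe sets tested. Of the 14, 8 were higher in high prolificacy sows, against 43.6% of all genes. At an unadjusted p under 0.05 stood 0 of the 14, against 4.45% of all genes. The median difference of the 14 was 0.079, against -0.027 in all genes. LOX, the lysyl oxidase that crosslinks collagen and elastin, averaged 8.995 ± 0.526 (SD, n = 6) in high and 8.48 ± 0.40 (n = 6) in low prolificacy sows, a difference of 0.52. SERPINH1, the collagen chaperone of the endoplasmic reticulum, differed by 0.32, and KDELR1, which returns proteins to that compartment, by 0.17. P4HA2, a prolyl hydroxylase of collagen, differed by -0.25, the lysyl hydroxylase PLOD1 by -0.11 and the lysyl oxidase LOXL4 by -0.27. Across sows 2 of the 14 had a correlation above 0.7 with COL1A2 and 2 under -0.7, with a median of 0.157, against 10.9% and 10.7% of all other genes. FKBP10 and COLGALT1, a chaperone and a sugar transferase of collagen, had correlations of 0.899 and 0.836 with COL1A2, and PCOLCE2, an enhancer of procollagen cleavage, had -0.923 and FKBP14, a chaperone, -0.721. These 4 were picked after their values were seen.

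Genes of collagen breakdown and matrix receptors likewise gave no call. Of 16 breakdown genes 6 were tested, with 0 past the limma adjusted threshold, against 0% of all probe sets tested. Their median difference was -0.036, against -0.027 in all genes. TIMP3, an inhibitor of metalloproteinases held in the matrix, averaged 4.61 ± 0.29 (SD, n = 6) in high and 5.16 ± 0.53 (n = 6) in low prolificacy sows, a difference of -0.55. It was the 1 gene of the 6 at an unadjusted p under 0.05 (limma adjusted p = 0.839), against 4.45% of all genes tested. The collagen-cleaving cathepsin CTSK differed by -0.29 and the protease ADAMTS1 by -0.067. The inhibitor TIMP1 differed by 0.078 and the gelatinase MMP2 by 0.0078. Of 18 receptors 8 were tested, with 0 past the adjusted threshold, against 0% of all probe sets tested. Their median difference was 0.064, against -0.027 in all genes. At an unadjusted p under 0.05 stood 0 of the 8, against 4.45% of all genes tested. The fibronectin receptor subunit ITGA5 differed by 0.37, the collagen receptor DDR1 by 0.20 and the heparan sulphate proteoglycan SDC2 by 0.12. SDC1, of the same family, differed by -0.61, and the integrin subunits ITGB5 and ITGB1 by -0.10 and -0.017.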

How the data were processed

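Labelled RNA of 12 sow ovaries was read on Affymetrix porcine arrays. The deposited values are log2 expression per probe set, made by the authors with GCOS and GCRMA (background correction, normalization and summary), per the submitters' processing notes; no version is given in the sources used here. Values ran from 0.97 to 15.34, as log2 values do. Of 24123 probe sets, 10099 had 1 symbol, 198 several and 13826 none; an update by Entrez ID changed 0. The 124 control probe sets were not tested. In a block of 62 controls the names were moved by 41 places round the block, after which the mean gap between same-named spike controls was 0.493 in place of 5.17. The 3' minus 5' differences of actin and GAPDH, and the results that use them, rest on this move. Their names were not among the 19 compared with spike controls.

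High minus low was tested with limma 3.58.1 in R 4.3.3 (lmFit, eBayes, no covariate, Benjamini-Hochberg), two-sided, on probe sets above 4 in at least 6 sows. Permutation tests used numpy 2.4.6 and scipy 1.17.1. The steps were tested on simulated data. All members are named, and of the collagen building, breakdown and receptor lists the 3 with the smallest p in each direction, with 5 markers. Other genes of these lists and of the marker lists are named for their correlation with COL1A2, their levels or their place below the filter. Members and lists were chosen with earlier results of these data known. The number of sows limits precision. The labels give no batch.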

Additional observations from a re-analysis of the deposited data

Results flagged for a closer look

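A single sow stood far from the other 5 of its group in 9 of 78 groups of values examined, by a gap test that chance alone passes in about 5% of groups. COL5A2 was 8.10 in high 2, where the other high prolificacy sows lay between 6.14 and 6.52. FAP was 9.98 in high 6, the others lying between 9.22 and 9.46. LUM was 9.51 in high 1, the others lying between 10.24 and 10.41. SPARC was 13.56 in low 5, the others of its group lying between 13.91 and 14.05. LAMC1 was 10.50 in low 4 in its brightest probe set, the others lying between 10.08 and 10.21, and 6.91 in low 6 in another probe set, the others lying between 7.21 and 7.37. Below the filter, COL11A1 was 2.79 in low 4, COL17A1 was 2.69 in high 5 and COL2A1 was 2.02 in low 5, all near the floor of the scale.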

How the results depend on the processing

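No setting brought any of the 22 genes past the limma adjusted threshold, and 0 probe sets passed in all settings but without low 1, where 1 did, so that leaving out single sows gave 0 to 1. With the animal number as a replicate block the count was 0, and 19 of 22 genes were higher in the high group, as without it. The numbers share only a label: deviations of same-numbered sows correlated between -0.455 and 0.168. The sign of 10 of the 22 differences held in all settings other than another probe set, among them COL4A2, FN1, LAMC1, POSTN, SPARC and DPT, though without 1 sow 19 of the 22 turned or moved by more than 1.5 times. Without high 2 and high 3 the differences turned to -0.057 for BGN, 0.19 for COL15A1, -0.19 for COL1A2, -0.034 for COL5A1, -0.080 for COL5A2, -0.100 for DCN, -0.035 for FBN1 and -0.013 for THBS2. Array weights gave 0.16 for COL15A1, -0.24 for COL1A2, -0.0075 for COL6A3, -0.11 for DCN and -0.100 for THBS2. The actin 3' difference as a covariate gave -0.28 for COL5A2, -0.57 for COL5A3 and -0.19 for FBN1, and albumin as a covariate 0.093 for COL15A1 and -0.065 for FAP. Quantile normalization gave 0.0022 for COL15A1. Another probe set gave -0.43 for COL1A2, -0.24 for FBN1, -0.27 for LAMB1 and -0.023 for THBS1. Leaving out 1 sow at a time, BGN ran from -0.14 to 0.13, COL15A1 from -0.15 to 0.091, COL1A2 from -0.24 to 0.38, COL5A1 from -0.066 to 0.41, COL5A2 from -0.14 to 0.26, COL5A3 from -0.086 to 0.20, COL6A3 from -0.013 to 0.57, DCN from -0.093 to 0.26, FAP from -0.082 to 0.13, FBLN1 from -0.049 to 0.44, FBN1 from -0.054 to 0.15 and THBS2 from -0.17 to 0.22. The cause of these changes was not tested. The count of genes higher in the high group ran from 13 to 20 without 1 sow. The count of genes higher and the pairs above 0.7, in other settings, were chosen after seeing the data.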

Other observations

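Smaller sets of matrix genes varied together. They hold FAP, DPT, LAMB1, COL5A2 and FBN1, whose correlations with COL1A2 lay between -0.481 and -0.034. FAP had correlations across the 12 sows of 0.729 with DPT and 0.711 with LAMB1, and DPT had 0.644 with LAMB1. High 6 and low 6 stood high in all 3 genes, and low 1 and low 2 stood low. COL5A2 had a correlation of 0.652 with FBN1, with high 2 highest in both. FN1 had no partner above 0.7 among the 21 other genes tested, and its correlation with ALB was 0.705. These pairs were picked after their values were seen and were not tested.

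In some genes the high prolificacy sows were spread more widely than the low prolificacy sows. The SD (n = 6 each) was 0.34 in high and 0.046 in low prolificacy sows for FBN1, 0.54 and 0.13 for COL15A1, and 0.59 and 0.091 for the endothelial marker PECAM1. In FN1, COL6A3 and DCN it was 0.60 and 0.64, 0.83 and 0.91, and 0.54 and 0.66. In LUM and FAP the low prolificacy sows were spread more widely, with 0.35 in high and 0.70 in low for LUM and 0.29 and 0.40 for FAP. The difference in spread was not tested.

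Of 59 probe sets of the group, 31 passed the filter, and only these were compared with each other. Different probe sets of a gene had a median correlation of 0.613 across sows over 13 pairs from 6 genes. The correlations ran from -0.236 for COL1A2 to 0.877 for COL5A1. Further probe sets of some genes lay below the filter, among them all but the brightest of FN1, DCN and SPARC. The dimmer COL1A2 probe set had correlations of -0.144 with COL5A1 and 0.054 with COL6A3, where the brighter one had 0.869 and 0.843.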
